A study of Sus scrofa domesticus with 4 samples.

Results

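Chemerin, leptin, resistin and visfatin are adipokines, hormones that fat tissue releases beside adiponectin. The 7 pig genes described here encode these hormones and receptors of chemerin and leptin. They are RARRES2 (chemerin), CMKLR1 and GPR1 (receptors of chemerin), LEP (leptin), LEPR (its receptor), RETN (resistin) and NAMPT (visfatin). They were picked by gene name, and their array probes were found through the RefSeq accession of each probe, which gave 11 of the 6700 probes that could be named and 7 of 3029 named genes. RARRES2, CMKLR1 and LEPR had 1 probe each, and GPR1, LEP, RETN and NAMPT had 2 each. The genes were chosen while results of the same treatment contrast were known, so their log ratios and levels are given as a description.

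The series asked what adiponectin does to gene expression in porcine myometrium, the smooth muscle wall of the uterus. Explants came from 4 gilts (Large White x Polish Landrace) aged 7 to 8 months and 15 to 16 days pregnant. The treated group received 10 µg/ml of adiponectin for 24 h. The untreated group was cultured for the same time without it. Both groups shared the medium M199 and the preceding 2 h of culture. Each of 4 two-colour Agilent arrays held 1 treated and 1 untreated RNA, and the labels tie no array to an animal and do not say whether its RNAs came from the same gilt. The spread between arrays may therefore be partly technical. Whole explants were used, so fewer cells of a type and less RNA per cell cannot be told apart.

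Chemerin is secreted as a precursor and becomes active when proteases trim its end. CMKLR1 passes its signal on through inhibitory G proteins and draws immune cells to the hormone, while GPR1 binds chemerin with high affinity and couples mainly to beta-arrestin. Leptin acts through LEPR and the kinase JAK2 on the transcription factor STAT3. NAMPT is the rate-limiting enzyme of NAD salvage and is also found outside cells as visfatin. Resistin comes from fat cells in rodents and mainly from macrophages in humans.

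The arrays measured 4 of the 7 genes. RARRES2, GPR1, NAMPT and 1 probe of LEP were well above background, a mark that the scanner software sets per spot, in both cultures on all 4 arrays. The other 5 probes, for CMKLR1, LEPR, RETN (both probes) and LEP (probe 2), were not well above background in either culture on any array. Their processed signals, which are background-subtracted and dye-normalised scanner units, lay between 4.16 and 15.0, and 15 of their 20 array ratios were listed as exactly 0. No change can be given for CMKLR1, LEPR or RETN, and this says nothing about whether the genes are expressed below that limit. The number of arrays limits the precision. The 95% interval of the median tested probe extended 0.39 log2 units to each side.

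**Figure D1:**
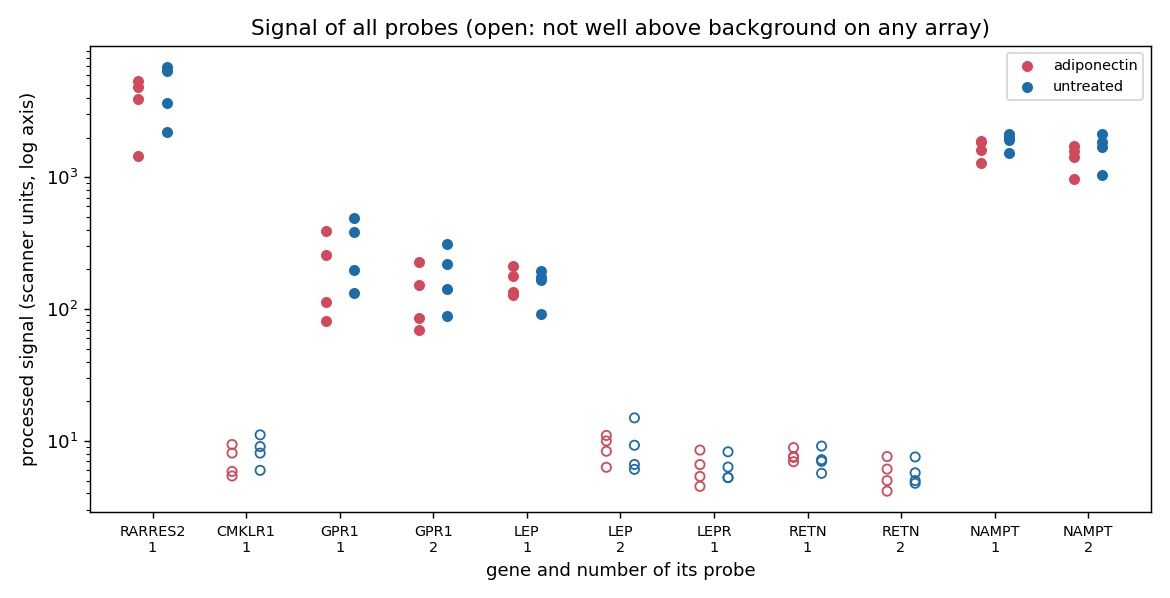
Processed signal (scanner units, log axis) of all 11 probes on the 4 arrays, adiponectin left and untreated right of each pair. Filled points belong to probes well above background on all arrays and open points to probes not so on any array. The 5 open probes lie between 4.16 and 15.0; signals of different probes cannot be set against each other.

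Across all tested probes, limma called none for a change with adiponectin. Tested were the 22133 probes well above background in 1 of the cultures, treated or untreated, on 3 or more arrays. Of these, 0 were higher and 0 lower at an adjusted p of 0.05, a background of 0%, with no adjusted p below 0.856. Without adjustment, 1264 probes (5.71%) had a p under 0.05. All 6 tested member probes were among those not called. Ratios are log2 of adiponectin over untreated, taken from the log ratio in the scanner files, with the sign turned on the arrays where treated RNA carried Cy3. A single-array ratio still holds the dye offset of its probe, which the fit estimates apart.

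GPR1, the arrestin-coupled chemerin receptor, had less signal in the adiponectin cultures on every array and with both probes. Probe 1 gave processed signals of 393, 81.8, 257 and 113 on arrays 1 to 4 in adiponectin cultures, against 491, 133, 386 and 199 in untreated cultures. The treated value was the lower one within each array, although the ranges of the groups overlap. In both cultures this probe gave more signal on arrays 1 and 3 than on arrays 2 and 4. Its log2 ratios were -0.32, -0.70, -0.59 and -0.81, and the fit gave -0.61 ± 0.14 (moderated SE, n = 4 arrays), with a 95% interval from -0.94 to -0.27. That is a signal 1.52-fold higher in untreated cultures. The limma adjusted p over all probes was 0.856.

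Probe 2 of GPR1 gave 227, 86.2, 152 and 68.9 in adiponectin cultures, against 314, 87.9, 221 and 143 in untreated cultures. The treated value was again the lower one within each array, and on array 2 the values nearly met. Its log2 ratios were -0.47, -0.03, -0.54 and -1.05, with a fitted change of -0.52 ± 0.20. The probes differed most on array 2, by 0.67, and least on array 3, by 0.05. The scanner software gives each spot's ratio an error of its own, between 0.21 and 0.28 on the log2 scale for these probes. For each probe, 3 of 4 array ratios lay more than 2 such errors from 0.

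The size of the GPR1 difference depended on the processing. With normexp background correction and loess normalisation in place of the deposited ratio, probe 1 stood at -0.39 and probe 2 at -0.19. Leaving out an array moved probe 1 only between -0.67 and -0.54, but probe 2 stood at -0.27 without array 4. The sign rests on the dye fields of the labels, by which treated RNA carried Cy5 on arrays 1 and 3 and Cy3 on the other two. The text of the labelling protocol names only treated RNA in Cy5, and read that way probe 1 of GPR1 would stand at 0.15. The deposited series table follows the dye fields: for 18169 probes bright on all arrays, 100% of its values lay within 0.01 of the turned scanner ratios on each array.

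**Figure D2:**
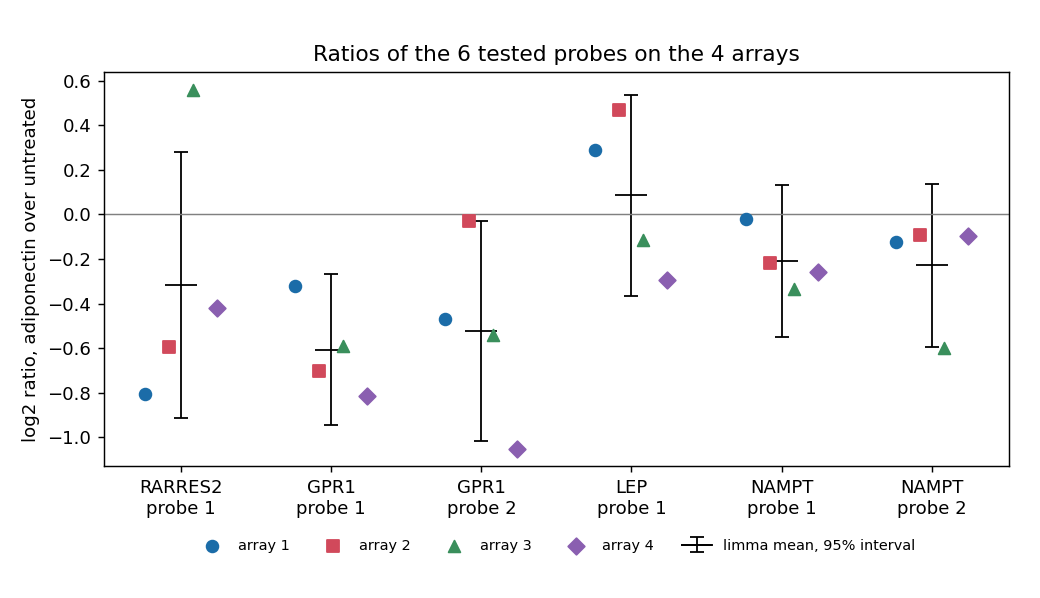
Log2 ratio of adiponectin over untreated for the 6 tested probes. Coloured points are the 4 arrays, and the black bar is the limma mean with its 95% interval. GPR1 and NAMPT lie below 0 on all 4 arrays with both probes, RARRES2 lies above 0 on array 3, and LEP lies on either side of 0.

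NAMPT, the NAD salvage enzyme known outside cells as visfatin, was also lower in the adiponectin culture of each array, by less. Probe 1 gave 1875, 1836, 1599 and 1287 in adiponectin cultures, against 1901, 2134, 2013 and 1538 in untreated cultures. The groups overlap across arrays, and on array 1 the cultures were nearly equal. The log2 ratios were -0.02, -0.22, -0.33 and -0.26, with a fitted change of -0.21 ± 0.14 and an interval from -0.55 to 0.13, which spans 0. Probe 2 gave 1572, 1738, 1416 and 978 in adiponectin cultures, against 1710, 1851, 2145 and 1045 in untreated cultures. Its ratios were -0.12, -0.09, -0.60 and -0.10, and its fitted change was -0.23 ± 0.15. Array 3 carried much of that value, which was -0.11 without it, while probe 1 stood at -0.13 without array 3. Only 1 of these 8 ratios, that of probe 2 on array 3, lay more than 2 spot errors from 0.

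The count of probes with 4 equal signs summarises GPR1 and NAMPT. Of the 6 tested member probes, 4 were below 0 on all 4 arrays, where 6.22% of all tested probes were. These 4 probes belong to 2 genes, and the genes were chosen with this contrast known, so nothing is read from the count.

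RARRES2, the chemerin gene itself, did not move one way across the arrays. Its single probe gave processed signals of 3912, 1458, 5376 and 4811 in adiponectin cultures, against 6838, 2202, 3648 and 6440 in untreated cultures. The treated culture was the lower one on arrays 1, 2 and 4 and the higher one on array 3. The ratios were -0.81, -0.59, 0.56 and -0.42, each more than 2 spot errors from 0. The fitted change was -0.32 ± 0.24, with an interval from -0.91 to 0.28. It was -0.66 without array 3 and 0.026 without array 1, and with all treated RNA read as Cy5 it would be 0.19.

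LEP was measured by 1 of its 2 probes, and that probe showed no common direction. Probe 1 gave 213, 127, 179 and 136 in adiponectin cultures, against 174, 92.1, 194 and 167 in untreated cultures. The treated culture was higher on arrays 1 and 2 and lower on arrays 3 and 4. The ratios were 0.29, 0.47, -0.12 and -0.29, and the fitted change was 0.09 ± 0.18 with an interval from -0.36 to 0.54. No ratio lay more than 2 spot errors from 0. Leaving out arrays 1, 2, 3 and 4 in turn gave -0.015, -0.10, 0.19 and 0.28. Probe 2 of the same accession gave 6.31 to 11.0 in adiponectin cultures and 6.09 to 15.0 in untreated cultures and was not well above background on any array, so the probes disagree on whether LEP was detected.

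**Figure D3:**
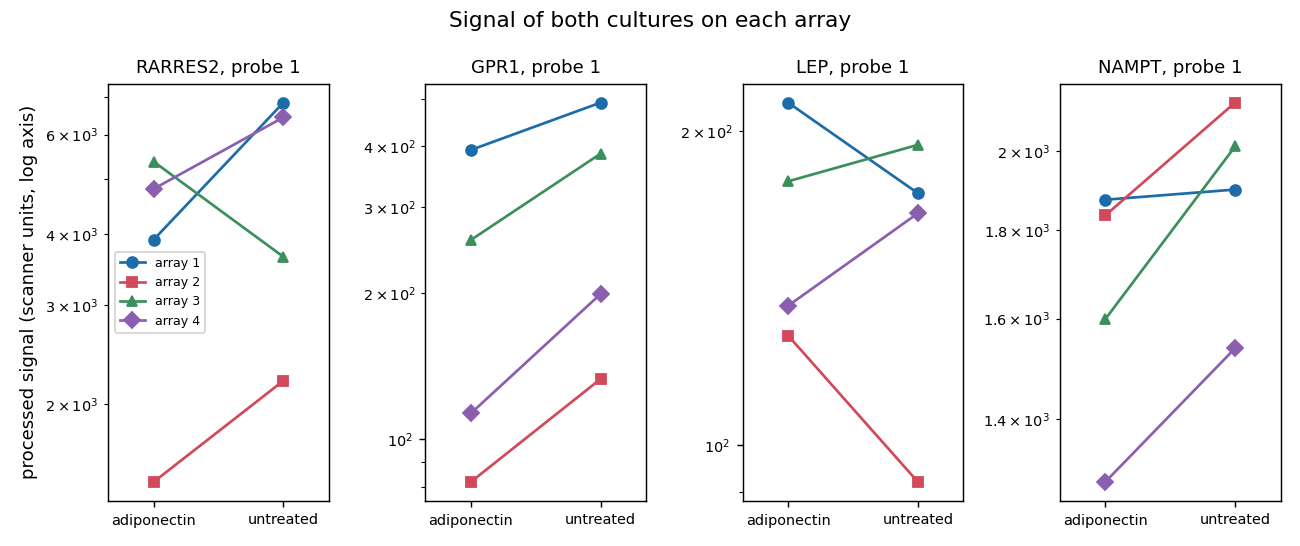
Processed signal (scanner units, log axis, a scale of its own per gene) of probe 1 of the 4 measured genes, adiponectin left and untreated right, with a line for each array. The GPR1 and NAMPT lines rise to the untreated side on all 4 arrays, RARRES2 does so on 3 arrays, and LEP on 2.

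Between arrays the untreated level of these genes varied by unlike amounts. To compare arrays, each log2 signal was set against the 75th percentile of its own channel. On that scale the untreated level of GPR1 probe 1 had an SD of 0.65 and a range of 2.58-fold (n = 4), and RARRES2 had an SD of 0.63 and a range of 2.57-fold. LEP probe 1 had an SD of 0.34 and NAMPT probe 1 of 0.32, with ranges of 1.68-fold and 1.60-fold. In the adiponectin cultures the ranges were 3.39-fold for GPR1 probe 1, 2.94-fold for RARRES2, 1.27-fold for LEP probe 1 and 1.63-fold for NAMPT probe 1. Each culture changed dye between arrays, so these ranges also hold the dye offset of the probe. The GPR1 range between untreated cultures was thus wider than the 1.52-fold difference between the cultures, and the comparison rests on pairs within an array. Arrays 1, 2 and 3 shared a slide and a scan, and array 4 was on another slide. With slide as a term, probe 1 of GPR1 stood at -0.58, of NAMPT at -0.20, of RARRES2 at -0.36 and of LEP at 0.28. Leaving out array 4 gave the same values.

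**Figure D4:**
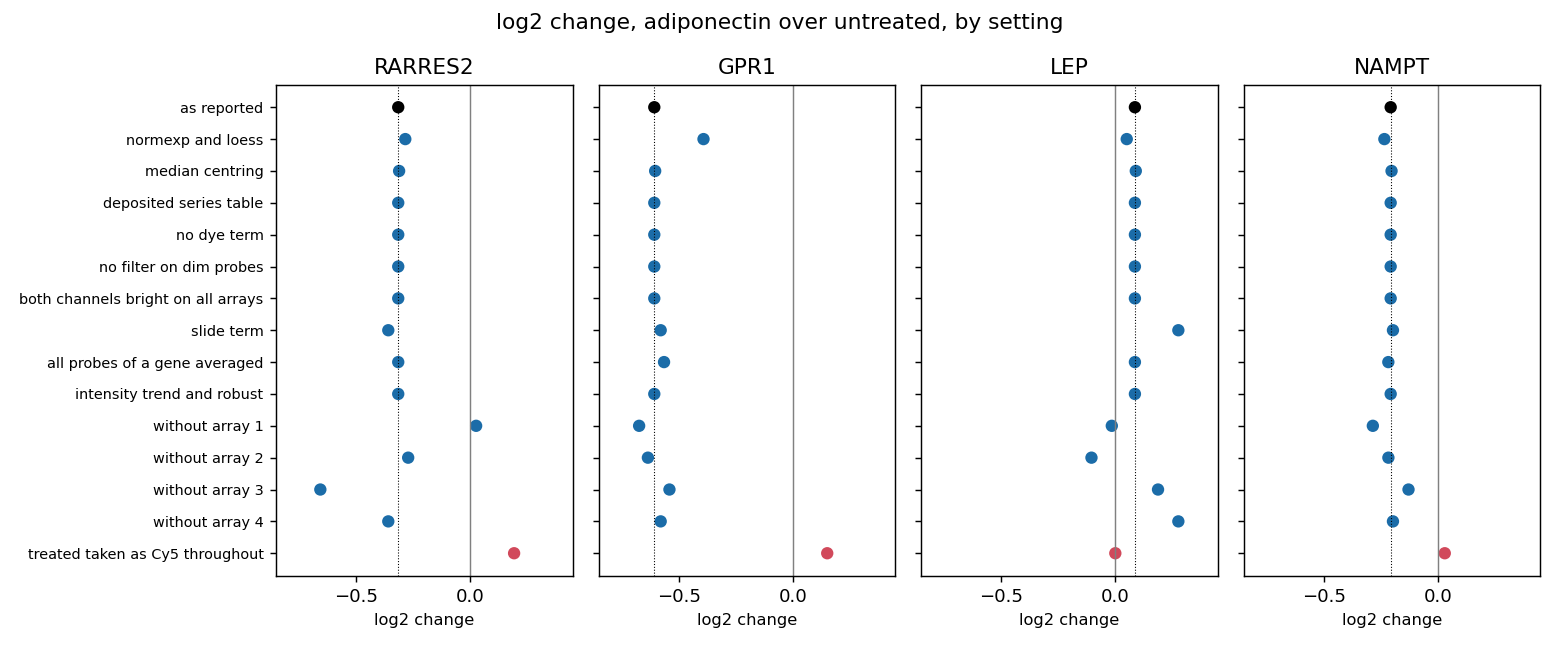
Log2 change of probe 1 of RARRES2, GPR1, LEP and NAMPT under each setting (rows), or of all tested probes averaged where the row says so. The black point and dotted line are the value as reported, blue points the alternatives, and the red point the reading of treated RNA as Cy5 on every array. GPR1 lies between -0.67 and -0.39 and NAMPT between -0.28 and -0.13 in all blue points, while RARRES2 and LEP cross 0 when an array is left out.

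None of the tested partners of chemerin passed. Of 8 genes listed for chemerin receptors and their coupling, 4 were tested, 0 passed in either direction, and all 4 were below 0 with a median log2 change of -0.11. That median was -0.04 without array 1 and -0.20 without array 3. Over the 2134 named tested genes the median was -0.02, and 54.4% were below 0. CCRL2, which binds chemerin without signalling, stood at -0.06 ± 0.16 and at 0.10 without array 2, and was well above background on 3 arrays in adiponectin cultures and on 1 in untreated cultures. GNAI2, an inhibitory G-protein subunit, stood at -0.22 ± 0.19, with -0.82 on array 1, and at 0.012 without that array. ITGB1BP2, CLDN6 and INSIG1 were the 3 genes whose ratios lay nearest to those of GPR1 probe 1, by Euclidean distance over the 4 arrays. The distances were 0.31, 0.32 and 0.45, where the median over 2133 genes was 1.40. Probe 2 of GPR1 lay at 0.73, NAMPT at 0.84, RARRES2 at 1.31 and LEP at 1.49. The fitted changes were -0.57 for ITGB1BP2, a muscle protein that binds integrin tails, -0.49 for CLDN6, a tight junction claudin, and -0.44 for INSIG1, a brake on sterol synthesis. The 3 genes were picked for ratios like those of GPR1, so fitted changes near its own follow from the choice and are no result. With normexp and loess the changes were -0.24, -0.14 and -0.29. CLDN6 was not well above background in both cultures on every array. INSIG1 was -0.27 when all its probes were averaged.

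None of the tested genes downstream of the leptin receptor passed. Of 10 listed, 6 were tested, 3 were below and 3 above 0, and the median was 0.00, with 0.07 without array 2 and -0.09 without array 3. STAT3, the main transcription factor of leptin signalling, stood at 0.11 ± 0.16 and at -0.058 without array 3. STAT5B stood at -0.39 ± 0.34, with ratios of 0.11, 0.20, 0.05 and -1.94, and at 0.14 without array 4. It was well above background on 3 arrays in each culture and stood at -0.0064 with normexp and loess. SOCS3, the feedback inhibitor that leptin induces in other tissues, was well above background on 2 arrays in each culture and was not tested.

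The resistin and visfatin partners were thinly covered. Of 4 listed resistin binding partners, 2 were tested and 0 passed, with a median of -0.03, which was 0.03 without array 1 and -0.09 without array 3. TLR4, the endotoxin receptor, stood at 0.07 ± 0.20 and at -0.18 without array 3, and DCN, a matrix proteoglycan of which a short form binds resistin in mice, at -0.13 ± 0.15 and at 0.0029 without array 3. Of 11 genes listed for NAD salvage and visfatin targets, 2 were tested and 0 passed, with a median of -0.08. The omission of array 1 put it at -0.15 and that of array 3 at -0.01. The NAD-dependent deacylases SIRT1 and SIRT6 both stood at -0.08, and SIRT1 at 0.0080 without array 2 and 0.045 without array 3. SIRT6 was -0.04 without array 2.

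Among 16 further adipokines and adipokine receptors, 8 were tested and 0 passed, with 5 below and 3 above 0 and a median of -0.03. This median was above 0 without array 3, at 0.15, and without array 4, at 0.08, and it was -0.15 without array 2. LCN2, lipocalin 2, stood at -0.48 ± 0.44 with ratios of -2.43, 0.11, 0.41 and -0.03, and at 0.22 without array 1. DPP4, a peptidase that fat tissue also releases, stood at 0.46 ± 0.18 with ratios of 0.41, 0.59, -0.23 and 1.06 (limma adjusted p = 0.856), and at 0.30 without array 1. The adiponectin receptors ADIPOR1 and ADIPOR2 stood at -0.37 ± 0.18 and 0.25 ± 0.19. ADIPOR1 was -0.18 without array 2, and ADIPOR2 was 0.04 without array 4.

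The tissue label was checked with smooth muscle markers. Of 10 listed, 5 had a named probe, and all 5 were well above background in both cultures on all 4 arrays, ACTA2, DES and the myosin kinase gene MYLK among them. Their median ratio was -0.66, -0.10, 0.95 and -0.25 on arrays 1 to 4, with the same signs as RARRES2. The summed signal of the 5 markers was 202722 to 351089 in adiponectin cultures and 163919 to 382364 in untreated cultures. Within the list the fitted changes ran from -0.11 for CNN1 to 0.11 for DES. CNN1 was 0.10 without array 1, DES was -0.33 without array 3 and -0.056 when all its probes were averaged. The part of tissue makeup in the RARRES2 ratios was not tested.

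Fat cells are a main source of these hormones, and some of their markers were too dim to test. Of 11 adipocyte markers, 10 had a named probe and 5 were tested, with a median of -0.17, and all 5 were below 0 in the fit with 0 passing. The fitted median was -0.45 without array 4 and -0.09 without array 2. The list median was below 0 on each array, at -0.12, -0.71, -0.34 and -0.05, but no single marker was. PNPLA2 was at 0.45 on array 3, PCK1 at 0.45 on array 2 and LIPE at 0.17 on array 1. On array 4, FABP4 was at 0.76 and CIDEA at 0.43. The summed signal of the 5 was 643 to 876 in adiponectin cultures and 774 to 965 in untreated cultures. They ran from PNPLA2, a triglyceride lipase, at -0.51 (-0.02 without array 1) to PCK1, an enzyme of glucose and glycerol synthesis, at -0.12 (0.090 without array 4). The fat-droplet genes PLIN1 and CIDEC were not well above background on any array, ADIPOQ was so on at most 1 array in each culture, LPL on 1 untreated array and DGAT2 on 2 arrays in each culture. The part of fat cells in the values of GPR1, NAMPT and LEP was not tested.

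Macrophage and monocyte markers had mostly positive ratios. Of 10 listed, 6 were tested and 0 passed, with a median of 0.73, and their ratio medians were 0.54, -0.20, 1.84 and 0.76 on arrays 1 to 4. Omitting array 3 put the fitted median at 0.38, and omitting array 4 at 0.48. The summed signal of the 6 was 1389 to 4255 in adiponectin cultures and 1294 to 2651 in untreated cultures. VSIG4, a complement receptor of tissue macrophages, stood at 1.20 ± 0.31 and CD14 at 0.01 ± 0.17, with CD14 at -0.08 without array 3 and -0.16 without array 4. GPR1 and NAMPT were below 0 on all 4 arrays. The macrophage median was above 0 on arrays 1, 3 and 4 and below 0 on array 2. The part of macrophages in the values of GPR1 and NAMPT was not tested. CMKLR1 and RETN, which macrophages express in humans, were not well above background on any array.

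Neutrophil markers had 5 of 8 genes tested and a median of -0.19, from PGLYRP1 at -0.54 (-0.32 without array 4) to FCGR3A at 0.47, a receptor that macrophages also carry and that stood at 0.22 without array 3 and 0.19 without array 4. PGLYRP1 was well above background on 3 arrays in each culture and stood at -0.16 with normexp and loess. The neutrophil median turned to 0.02 without array 2 and 0.08 without array 3, and it was -0.05 with normexp and loess. Endothelial markers had 5 of 8 tested and a median of 0.14, from ENG at -0.45 to PECAM1 at 0.35, and PECAM1 was 0.18 without array 4. Their median was -0.06 without array 3, -0.19 without array 4 and 0.31 when array 2 was left out. Endometrial epithelial markers had 4 of 8 tested and a median of 0.21, from CLDN4 at -0.17 to EPCAM at 0.53. This fitted median was 0.10 without array 1, 0.32 without array 3 and 0.07 with normexp and loess. The epithelial ratio medians swung between arrays, with -0.43, 1.02, -0.83 and 0.84 on arrays 1 to 4. Their summed signal was 211, 3678, 580 and 4715 in adiponectin cultures, against 237, 1741, 1086 and 1131 in untreated cultures. The part of epithelial cells in the member values was not tested. EPCAM stood at -0.27 with normexp and loess, and CLDN4 at -0.02 without array 4. No gene of these 3 lists passed.

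**Figure D5:**
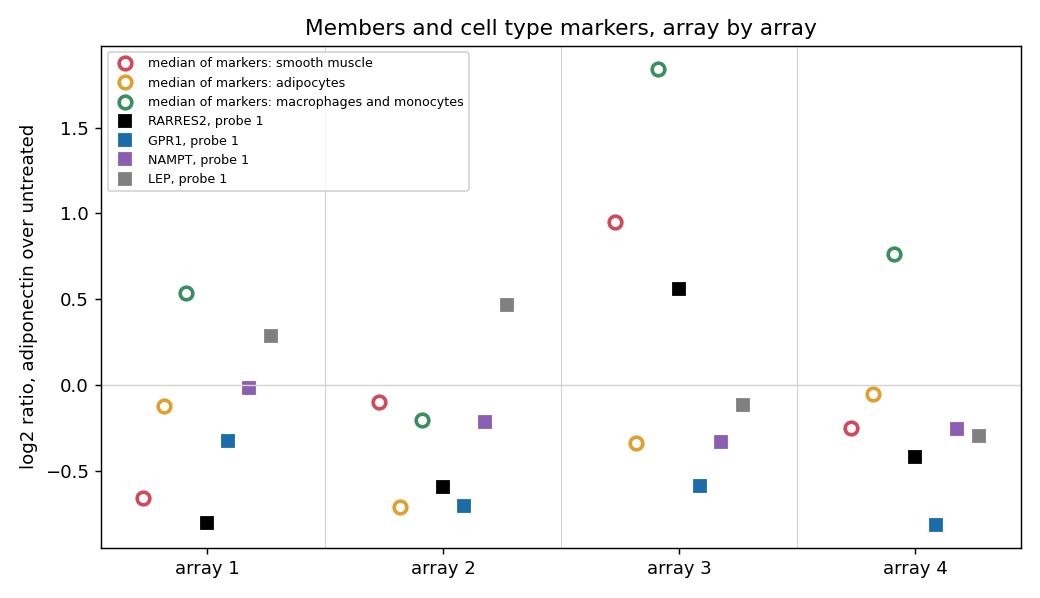
Log2 ratio of adiponectin over untreated on each array, for probe 1 of the 4 measured genes (squares) and for the median of 3 cell type marker lists (circles). On array 3 the smooth muscle and macrophage medians reach 0.95 and 1.84 and RARRES2 reaches 0.56, while GPR1 and NAMPT stay below 0.

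Over all tested probes the arrays were compared by the turned ratios, from which no dye term was removed. Pearson's r across these probes ran from -0.31 to 0.25. The lowest was for arrays 2 and 3, of opposite dye orientation, and the highest for arrays 2 and 4, of the same orientation. Probes are not independent replicates, and no test is attached to these values. Arrays 1 and 3, which share a dye orientation, gave -0.046.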

How the data were processed

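RNA of adiponectin-treated and untreated explants was measured on 4 two-colour arrays. The deposited scanner files hold intensity per channel and a log10 ratio of Cy5 over Cy3, background-subtracted and dye-normalised with Agilent Feature Extraction 10.7.3.1, per the file headers. The deposited series table holds log2 ratios. The median of its columns was -0.10, 0.13, -0.14 and 0.16, while its scale and direction matched the scanner ratios of bright probes, and how the authors made values of dim probes is not given in the sources used here.

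Ratios were divided by log10 of 2 and turned by the dye fields. Outlier spots were left out and spots of a probe averaged. Of 43603 probes, 7125 had a RefSeq accession and 6700 matched a symbol of assembly Sscrofa11.1, used for names only; no coordinates are given. A gene with several tested probes was represented by its brightest one. Ratios were fitted with limma 3.58.1 in R 4.3.3 (lmFit, eBayes) with treatment and dye coefficients, two-sided, with Benjamini-Hochberg adjustment at 0.05. The fit was tested on simulated data. Alternatives were normexp (offset 50) with loess, median centring, the series table, no dye term, 2 filters, a slide term, averaged probes, a trended fit and leaving out each array. The reading of treated RNA as Cy5 throughout was added after the data were seen. Members and lists were chosen with earlier results of these data known. Named were all members, both ends of each list, ADIPOR1, ADIPOR2, CCRL2 and the 3 genes nearest to GPR1, and ACTA2, MYLK, SOCS3 and undetected fat markers were added afterwards.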

Additional observations from a re-analysis of the deposited data

Results flagged for a closer look

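Dixon's ratio, the gap of the outermost array to its nearest neighbour divided by the whole range, passed its 95% critical value in 5 of the 45 sets examined. About 2.25 would pass by chance if the sets were independent and not selected, and they were not. Many are list ends picked by fitted change, which a single distant array can set. The ratios and levels of a member probe come from the same spots. The count is therefore given as a description. For NAMPT probe 2 it was 0.941, with -0.60 on array 3 while arrays 1, 2 and 4 gave -0.12, -0.09 and -0.10. For STAT5B it was 0.927, with -1.94 on array 4. For LCN2 it was 0.844, with -2.43 on array 1. For PGLYRP1 it was 0.936, with -1.24 on array 4, and for CNN1 it was 0.950, with 0.52 on array 3. STAT5B and PGLYRP1 were well above background on only 3 arrays in each culture. No array was the distant one in all 5 sets.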

How the results depend on the processing

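Each array ratio sets 1 treated against 1 untreated RNA, so the fit is paired within arrays, and no further pairing was tried. No member passed under any of the 13 alternatives. All 4 ratios of GPR1 and of NAMPT were below 0, so leaving out an array could not turn their sign. Over all probes, leaving out an array gave 0 to 12 calls, the 12 without array 3, all higher and none a member. With 3 arrays, the array alone in its dye orientation weighs as much as the others together. Leaving out each array gave -0.66 to 0.026 for RARRES2, -0.10 to 0.28 for LEP, -0.22 to 0.10 for CCRL2, -0.16 to 0.18 for CD14, -0.32 to 0.10 for CNN1, -0.27 to 0.0029 for DCN, -0.33 to 0.55 for DES, -0.46 to 0.012 for GNAI2, -1.19 to 0.22 for LCN2, -0.33 to 0.090 for PCK1, -0.21 to 0.045 for SIRT1, -0.058 to 0.28 for STAT3, -0.93 to 0.14 for STAT5B and -0.18 to 0.32 for TLR4. The slide term, which takes treatment values from slide 1 alone, gave -0.16 for CD14, 0.090 for PCK1 and 0.14 for STAT5B. With normexp and loess, CD14 stood at -0.0056 and EPCAM at -0.27, and with averaged probes DES stood at -0.056; the cause was not tested. With treated RNA read as Cy5 on every array, RARRES2 stood at 0.19, GPR1 at 0.15 and NAMPT at 0.031. At an unadjusted p under 0.05 the split of all probes was 839 higher and 425 lower, and 759 and 375 with normexp and loess.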
